A study of Homo sapiens with 12 samples.

Results

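The ubiquitin-specific proteases, named USP in human, are the largest class of deubiquitinases, the proteases that remove ubiquitin from proteins. The genes described here are the rows of a table of TPM, the abundance of a transcript scaled by its length and by the library total, whose name is USP followed by digits, with an optional ending X or L, and 51 of the 62232 rows matched. RNA was sequenced from K562, a line of chronic myeloid leukaemia cells that carries the BCR::ABL1 kinase, in 4 groups of 3 libraries: control, MLN4924 (25 µM), imatinib (0.5 µM), and imatinib (0.5 µM) together with MLN4924 (25 µM). The treatments were given for 12 h. All groups are 1 cell line, and no source says whether replicate libraries came from separate cultures, so a p-value here reflects only how the libraries vary, which may be technical. Imatinib inhibits the ABL1 kinase, and MLN4924 inhibits the enzyme that activates NEDD8, the ubiquitin-like protein whose attachment to cullins switches on a large family of ubiquitin ligases.

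Ubiquitin is attached to lysines of target proteins by a cascade of activating, conjugating and ligating enzymes, and chains of it mark many targets for the proteasome. Deubiquitinases work in the opposite direction. They spare targets from degradation, edit chains, recycle ubiquitin at the proteasome and take the single ubiquitin off histones. USP proteins share a catalytic fold but differ in the domains around it, which place them in the nucleolus, on chromatin, at the proteasome, on endosomes or on mitochondria.

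All 9 erythroid markers that K562 cells are known for were at 27.1 TPM or more in every library. Of 14 markers of lymphoid, monocyte, stromal and epithelial cells, 3 reached 1 TPM, CD3D and LYZ among them, and CD2 and MS4A1 were at 0. The summed mean of those 14 was 50.4 TPM in control, 59.4 TPM with MLN4924, 16.5 TPM with imatinib and 25.9 TPM with both drugs. The libraries ranged from 45.9 to 53.8, 46.3 to 68.2, 12.1 to 21.3 and 20.5 to 36.4 TPM in the same order, and CD3D alone held 4.06 to 59.4 TPM of it. The sum was lower in both groups with imatinib, and its part in the results was not tested. The share of TPM from mitochondrially encoded genes was 13.2%, 13.4%, 17.7% and 15.2% in the same order. Depth cannot be read from TPM, so no counting error is given.

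Of the 51 genes, 46 reached at least 1 TPM in at least 3 libraries and were tested, among 15478 genes in all. USP6, USP26, USP29, USP43 and USP50 did not pass. The median control level of the 46 genes was 18.3 TPM, against 11.2 TPM over all genes tested. The control mean was above 50 TPM in 9 genes, 10 to 50 TPM in 20 genes and below 10 TPM in 17 genes.

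TPM is scaled by length, so levels compared between genes depend on the length taken for each. The length given was 2183 bases for USP39 and 14971 bases for USP15, against 3953 and 19418 annotated exonic bases. How the order below depends on length was not tested. The most abundant in control was USP39, a protein of the spliceosome without a working catalytic site, with 110.2, 108 and 114 TPM in the 3 libraries. USP10, a cytoplasmic enzyme that binds G3BP1 and acts on p53, followed with 105, 108 and 118 TPM, and USP15, an enzyme with a DUSP domain that acts on TGF-beta receptors and SMADs, with 117, 113 and 101 TPM. These 3 genes overlapped, and their order was not separated by the libraries. USP14, the enzyme that docks on the proteasome, came next with 79.6, 80.3 and 88.5 TPM, and USP20, which acts on receptors at endosomes, with 88.3, 82.3 and 72.01 TPM. USP14 and USP20 also overlapped with each other but lay below the first 3 genes in every control library. USP22, the deubiquitinase of the SAGA complex, held 71.3, 65.4 and 68.3 TPM.

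**Figure D1:**
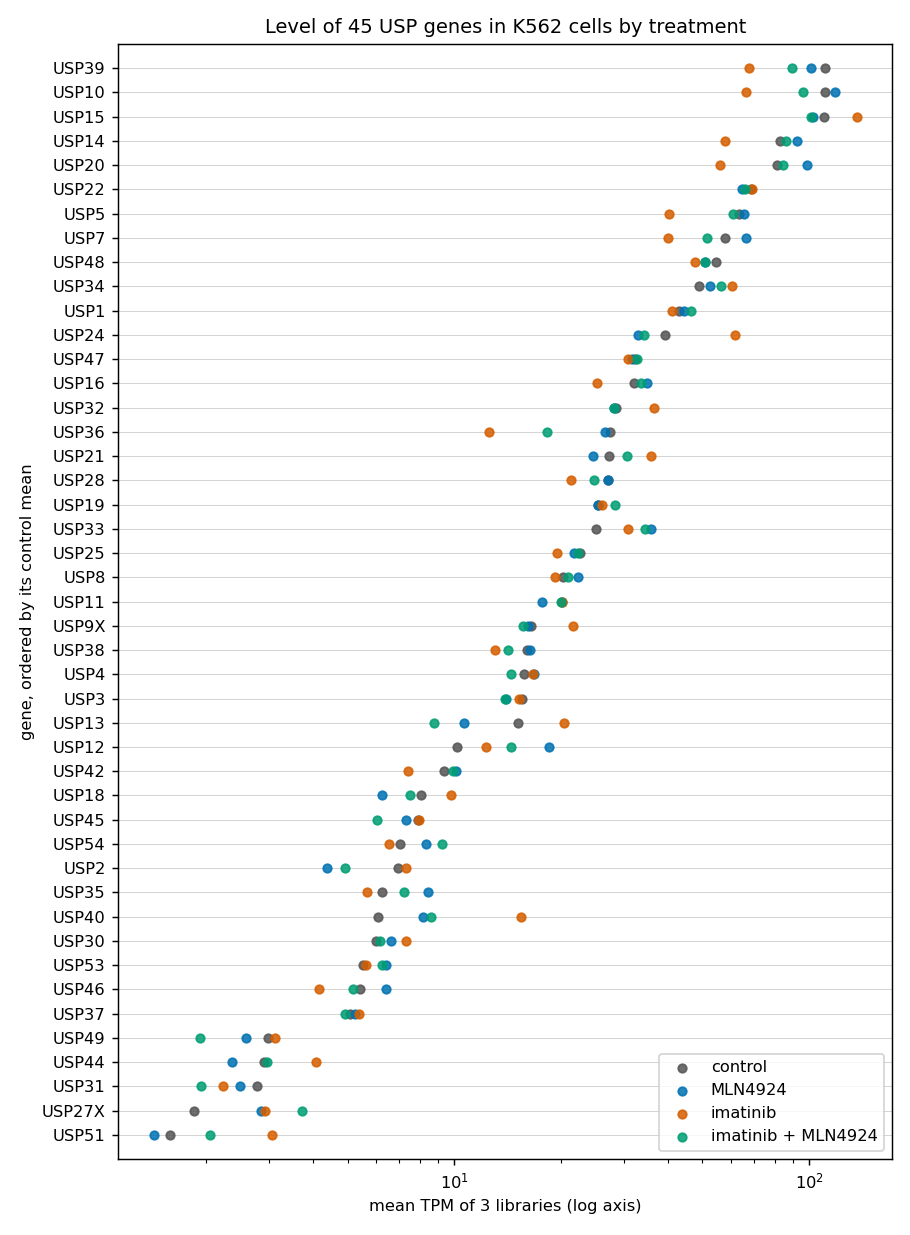
Mean TPM of 3 libraries (x axis, log scale) of the 45 USP genes with a control mean above 0 that were tested, ordered by that mean, with 1 point for each treatment. The imatinib points of USP36, USP10 and USP39 lie to the left of the other 3 groups and those of USP24, USP51 and USP40 to the right.

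Added over the 51 genes, USP transcripts made up 1334 ± 58.3 TPM in control, 1373 ± 50.6 TPM with MLN4924, 1220 ± 54.4 TPM with imatinib and 1299 ± 62.6 TPM with both drugs as means (SD, n = 3). The libraries ranged from 1294 to 1401 TPM in control and from 1157 to 1254 TPM with imatinib, so those groups did not overlap. Rescaled to the total of TPM outside the mitochondrial chromosome, the sums were 1537 ± 73.3 in control and 1482 ± 69.8 with imatinib, with ranges of 1491 to 1621 and 1401 to 1527 that overlapped. The sums were not tested.

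Within groups the USP genes varied little. The median coefficient of variation was 8.54% over the 46 genes and 11.03% over all genes tested. USP48, a nuclear enzyme, had the lowest at 2.07%, and 44 genes lay below 20%. The exceptions were USP13 (90.2%), a paralog of USP5, and USP41 (103%).

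Promoter windows of 300 bases that span the annotated start were taken from RefSeq (GRCh38.p14), and 39 of the 51 genes had at least 1. On both strands, 5 motifs were searched: CACGTG, the E-box; CCGGAAGT, the ETS site; GCGCATGC, the NRF1 site; TGACNNNGC, the core of the antioxidant response element; and TGACGTCA, the cAMP response element. A stretch cannot match TGACNNNGC and TGACGTCA from the same first base. USP16 (CCGGAAGT) and USP38 (TGACNNNGC) fell with imatinib and carried a motif, and their windows are not shown. The windows shown are those of 4 other genes that fell with imatinib and carried 1 of the motifs, each shown in capitals.
USP36: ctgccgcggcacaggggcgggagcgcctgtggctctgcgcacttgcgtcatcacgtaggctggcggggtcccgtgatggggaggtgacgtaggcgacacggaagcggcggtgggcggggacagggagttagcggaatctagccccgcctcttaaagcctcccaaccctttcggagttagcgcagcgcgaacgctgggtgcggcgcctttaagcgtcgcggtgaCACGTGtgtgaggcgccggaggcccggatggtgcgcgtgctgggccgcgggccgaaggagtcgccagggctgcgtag
USP39: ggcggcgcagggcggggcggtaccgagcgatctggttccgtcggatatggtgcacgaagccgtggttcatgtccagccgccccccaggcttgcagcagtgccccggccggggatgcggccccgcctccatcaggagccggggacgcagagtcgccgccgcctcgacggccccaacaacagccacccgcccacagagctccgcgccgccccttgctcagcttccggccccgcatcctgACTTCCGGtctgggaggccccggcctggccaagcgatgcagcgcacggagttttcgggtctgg
USP5: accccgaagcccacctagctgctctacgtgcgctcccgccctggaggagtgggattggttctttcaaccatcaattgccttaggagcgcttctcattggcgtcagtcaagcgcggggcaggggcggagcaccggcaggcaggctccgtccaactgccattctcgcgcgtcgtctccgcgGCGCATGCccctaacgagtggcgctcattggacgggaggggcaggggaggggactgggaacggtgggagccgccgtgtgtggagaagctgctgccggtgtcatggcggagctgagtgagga
USP14: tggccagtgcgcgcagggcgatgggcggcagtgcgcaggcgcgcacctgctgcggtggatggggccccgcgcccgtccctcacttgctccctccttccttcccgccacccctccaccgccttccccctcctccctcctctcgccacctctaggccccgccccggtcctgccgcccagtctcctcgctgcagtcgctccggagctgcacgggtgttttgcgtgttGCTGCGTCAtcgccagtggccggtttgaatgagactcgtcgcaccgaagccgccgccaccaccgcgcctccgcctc

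The USP36 window lies on the minus strand of chromosome 17 (chr17:78840765-78841064) with CACGTG at position -27 from the start, in 1 of the 2 windows annotated for the gene. The USP39 window lies on the plus strand of chromosome 2 (chr2:85611855-85612154), 1 of 3 for the gene, and holds CCGGAAGT in reverse at position -13. The USP5 window is on the plus strand of chromosome 12 (chr12:6851900-6852199) with GCGCATGC at -71, and the USP14 window on the plus strand of chromosome 18 (chr18:158307-158606) with TGACNNNGC in reverse at -26. Of the 10 genes that fell with imatinib and had a window, at most 2 held the same motif, and of the 7 that rose at most 1. The 39 USP genes had 53 windows between them. CACGTG was in 4 of those windows (USP6, USP28, USP32, USP36), or 7.55%, and in 7.26% of the 35116 windows of all genes. CCGGAAGT was in 9.43% of the USP windows (5) and 4.14% of all windows, and GCGCATGC in 5.66% (3) and 3.05%. TGACNNNGC was in 9.43% (5) and 13.3%, and TGACGTCA in 0% and 1.85%. The median share of G and C was 68.5% over the 39 USP genes and 58.67% over all windows. Its part in the motif shares was not tested. Windows of the same gene can share bases. USP10, USP7 and USP20, which also fell with imatinib, had none of the 5 in their windows. A match describes these letters only, and binding was not measured.

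Imatinib changed 22 of the 46 USP genes, in both directions (limma on log2(TPM + 1), Benjamini-Hochberg over all genes tested). USP36, USP10, USP39, USP5, USP20, USP7, USP14, USP16, USP46, USP42, USP38 and USP48 fell, 12 genes, where 27.5% of all genes tested fell. USP40, USP51, USP24, USP27X, USP21, USP9X, USP32, USP34, USP15 and USP33 rose, 10 genes, where 26.3% of all genes tested rose. These shares of the USP genes were 26.1% and 21.7%, close to the background in both directions, and the median log2 fold change was -0.0008 over the 46 genes and 0.02 over all genes tested. In bulk RNA, fewer cells that hold a transcript and less of it per cell cannot be told apart.

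The nucleolar member USP36 and the splicing member USP39 both fell with imatinib. USP36 (ENSG00000055483, GRCh38 chr17:78787381-78841441), which keeps nucleolar proteins and MYC free of ubiquitin, had 27.6, 26.7 and 28.2 TPM in control and 10.6, 12.2 and 14.8 TPM with imatinib. All imatinib libraries lay below all control libraries, and the imatinib mean was 45.4% of that in control, a log2 fold change of -1.09 ± 0.13 (SE, adjusted p = 3.87e-05). USP39 (ENSG00000168883, GRCh38 chr2:85602856-85649283), needed for the assembly of the tri-snRNP in splicing, went from 110.2, 108 and 114 TPM to 59.5, 71.3 and 72.6 TPM. The groups were far apart, with a log2 fold change of -0.71 ± 0.08 (SE, adjusted p = 2.17e-05).

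Of the members that act at the proteasome, on free chains or at the endoplasmic reticulum (USP5, USP13, USP14, USP19 and USP25), 2 of 5 fell and none rose with imatinib, where 27.5% of all genes tested fell and 26.3% rose. USP14, which trims chains on proteasome-bound proteins, had 49.6, 57.7 and 65.9 TPM with imatinib against 79.6, 80.3 and 88.5 TPM in control. USP5, which takes apart unanchored ubiquitin chains, had 44.5, 36.9 and 39.1 TPM against 62.4, 58.3 and 69.2 TPM. Neither gene overlapped between the groups, and the log2 fold changes were -0.52 ± 0.09 (SE, adjusted p = 0.00066) and -0.64 ± 0.14 (SE, adjusted p = 0.00292). USP19, anchored in the endoplasmic reticulum, differed by 0.04 (95% interval -0.13 to 0.20) and USP25 by -0.19 (-0.43 to 0.06), and neither passed. USP13, the paralog of USP5, had 4.99, 5.52 and 34.9 TPM in control and 1.92, 56.2 and 2.74 TPM with imatinib. A single library per group carried its high values, and no difference could be read from it.

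Of the 8 members with roles in DNA repair or p53 turnover (USP1, USP7, USP10, USP11, USP28, USP45, USP47 and USP48), 3 fell with imatinib, where 27.5% of all genes tested fell. USP10 (ENSG00000103194, GRCh38 chr16:84699986-84779922) had 105, 108 and 118 TPM in control and 63.4, 62.6 and 73.1 TPM with imatinib, a log2 fold change of -0.73 ± 0.08 (SE, adjusted p = 2.42e-05). USP7, which acts on MDM2 and p53, had 53.2, 58.3 and 62.6 TPM and 35.2, 40.3 and 44.4 TPM, a log2 fold change of -0.53 ± 0.10 (SE, adjusted p = 0.000824). Neither gene overlapped between the groups. The fall of USP48 was small, from 51.4, 53 and 59.5 TPM to 45.7, 47.98 and 48.8 TPM (log2 fold change -0.20 ± 0.06 SE, adjusted p = 0.0213). USP1, which takes ubiquitin off FANCD2 and PCNA, had 43.6, 41.8 and 43.6 TPM in control and 37.05, 36.9 and 49.1 TPM with imatinib, where replicate 3 was the high one, and did not pass (log2 fold change -0.08 ± 0.10 SE, adjusted p = 0.52). Without that library it passed as lower (-0.21, adjusted p = 0.0149 with limma).

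Of the chromatin members, 3 of 9 rose and 2 of 9 fell with imatinib, near the 26.3% and 27.5% of all genes tested. USP51 and USP27X can stand in for USP22 as partners of the SAGA subunits ATXN7L3 and ENY2. USP51 had 1.46, 1.51 and 1.77 TPM in control and 3, 3.26 and 2.95 TPM with imatinib (log2 fold change 0.66 ± 0.14 SE, adjusted p = 0.00221), and USP27X had 1.83, 1.69 and 2.02 TPM and 3.03, 2.55 and 3.18 TPM (log2 fold change 0.46 ± 0.14 SE, adjusted p = 0.0139). The groups were apart in both, at levels near the filter. USP22 itself, more than an order of magnitude more abundant, had 66.9, 67.97 and 71.7 TPM with imatinib and 71.3, 65.4 and 68.3 TPM in control, with a log2 difference of 0.01 and an interval of -0.15 to 0.17. USP21, which takes ubiquitin off histone H2A, rose from 25.9, 26.5 and 29.5 TPM to 34.7, 37.5 and 34.9 TPM (log2 fold change 0.38 ± 0.10 SE, adjusted p = 0.00831). USP16, which acts on the same histone mark, fell from 29.2, 31.8 and 35.4 TPM to 23.9, 23.5 and 28.6 TPM (log2 fold change -0.33 ± 0.09 SE, adjusted p = 0.00898). USP7, which also counts among the chromatin members, is the other that fell.

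Among members of endosomes and receptors, USP20 fell with imatinib, from 88.3, 82.3 and 72.01 TPM to 52.97, 48.5 and 66.6 TPM (log2 fold change -0.53 ± 0.12 SE, adjusted p = 0.00259). Its close paralog USP33 rose, from 23.1, 23.9 and 28.4 TPM to 29.8, 33.1 and 29.5 TPM (log2 fold change 0.29 ± 0.10 SE, adjusted p = 0.024). Both are known to act on the beta-adrenergic receptor. USP32, which acts on RAB7, had 26.7, 27.7 and 30.96 TPM in control and 38.3, 38.5 and 32.9 TPM with imatinib (log2 fold change 0.35 ± 0.09 SE, adjusted p = 0.00492). Of the 50-base windows of USP32, 18.1% also occur in transcripts of other USP-named genes, 10.8% in USP32P4, so its reads may be split. Only transcripts with a USP name were searched. USP6 shares 7.35% of its own windows with USP32.

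USP24, USP9X, USP34 and USP15 also rose with imatinib. USP24 (ENSG00000162402, GRCh38 chr1:55066359-55215378), a giant enzyme related to USP9X, had 32.3, 42.3 and 42.97 TPM in control and 60.3, 60.3 and 64.1 TPM with imatinib. Its lowest imatinib library was above its highest control library, the mean was 157% of control, and the log2 fold change was 0.65 ± 0.11 (SE, adjusted p = 0.000463). USP9X, which stabilises MCL1, had 17.6, 14.4 and 17.3 TPM and 21.96, 23.8 and 19.1 TPM (log2 fold change 0.37 ± 0.10 SE, adjusted p = 0.00896). USP34, which acts on axin in the Wnt pathway, had 42.5, 48.8 and 55.2 TPM and 57.9, 60.4 and 63.9 TPM (log2 fold change 0.32 ± 0.09 SE, adjusted p = 0.0112). On the opposite strand AHSA2P covers 17.7% of the exonic bases of USP34 and had 41.3, 40.8 and 46.7 TPM in control and 76.99, 72.4 and 75.2 TPM with imatinib, and since counting by strand is not stated, reads of the overlap cannot be told apart. USP15 rose from 117, 113 and 101 TPM to 127, 149.8 and 132 TPM (log2 fold change 0.30 ± 0.07 SE, adjusted p = 0.00488).

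USP40 had the largest log2 fold change among the rises but also the widest spread of them. The gene (ENSG00000085982, GRCh38 chr2:233475526-233566782) held 6.33, 5.73 and 6.17 TPM in control and 25.4, 11.5 and 9.23 TPM with imatinib. Replicate 1 stood well above the other imatinib libraries, and all of them were above control. The log2 fold change was 1.08 ± 0.26 (SE, adjusted p = 0.00468), and 0.68 (adjusted p = 0.00131, limma) without that library. USP46, which binds UAF1, was called lower (-0.31, adjusted p = 0.0393 by limma) although a control and an imatinib library overlapped.

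**Figure D2:**
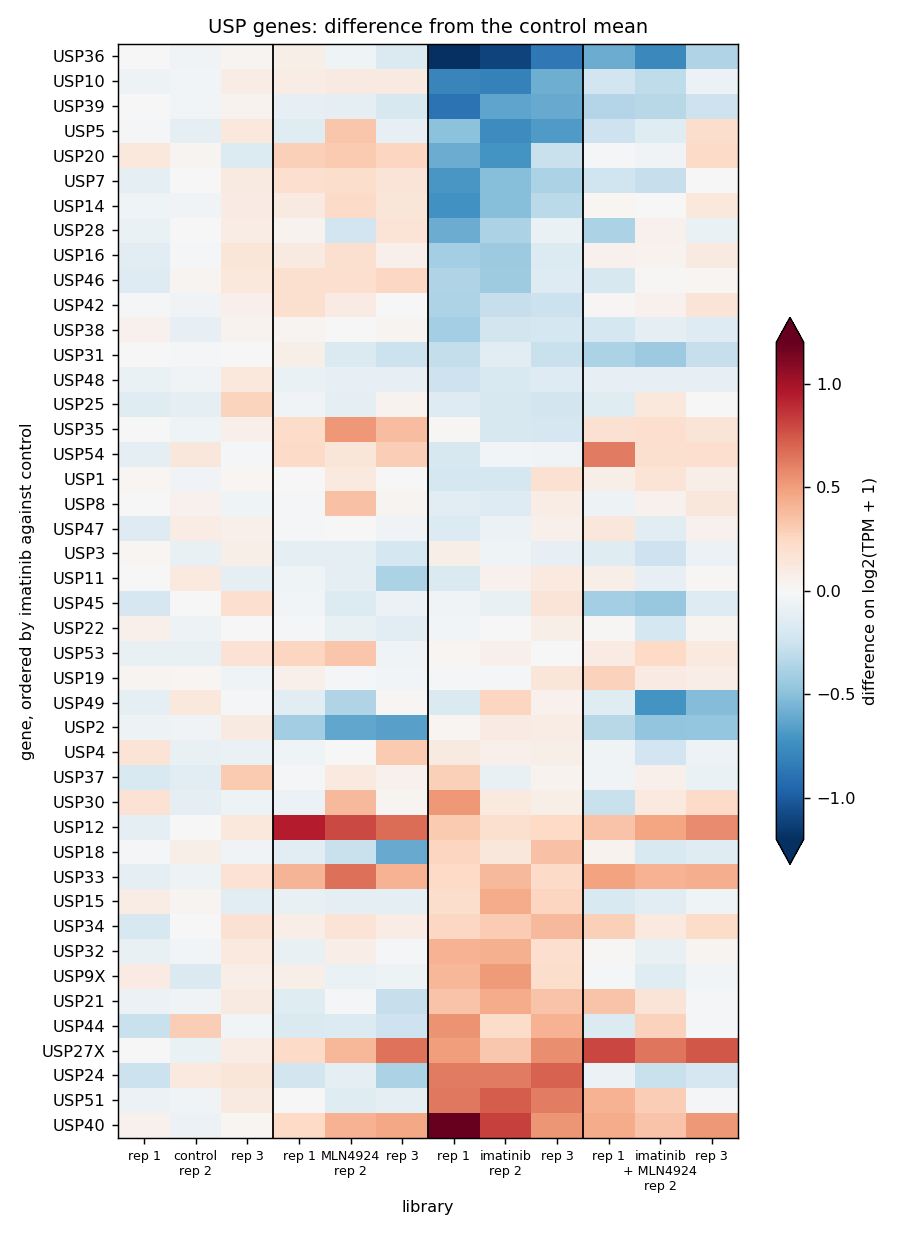
Difference of each library (columns) from the control mean on the log2(TPM + 1) scale (colour) for 44 USP genes (rows), ordered by their log2 fold change with imatinib; USP13 and USP41 are left out. The imatinib columns are blue for the 12 genes that fell and red for the 10 that rose, and most of those rows are paler in the columns of imatinib + MLN4924.

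MLN4924 alone changed 4 of the 46 USP genes: USP12, USP33 and USP35 rose, 3 genes where 7.36% of all genes tested rose, and USP2 fell, 1 gene where 7.11% of all genes tested fell (2 USP genes without control replicate 1). USP12 (ENSG00000152484, GRCh38 chr13:27066156-27171811), which with UAF1 (WDR48) and WDR20 acts on histones and receptors, had 9.28, 10.1 and 11.2 TPM in control and 20.4, 18.4 and 16.8 TPM with MLN4924. Every MLN4924 library was above every control library, the mean was 182% of that in control, and the log2 fold change was 0.80 ± 0.10 (SE, adjusted p = 0.000418). Of its 50-base windows, 6.09% also occur in transcripts of other USP-named genes. The other UAF1-bound enzymes, USP1 and USP46, did not pass, with log2 differences of 0.04 (-0.17 to 0.26) and 0.21 (-0.04 to 0.47).

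USP33 (ENSG00000077254, GRCh38 chr1:77695987-77759852), an enzyme that is itself a substrate of the cullin ligase of VHL, had 33.5, 40.2 and 33.8 TPM with MLN4924 against 23.1, 23.9 and 28.4 TPM in control (log2 fold change 0.50 ± 0.10 SE, adjusted p = 0.00566). Its paralog USP20, a substrate of the same ligase, had 98.8, 100.2 and 96.6 TPM against 88.3, 82.3 and 72.01 TPM. The USP20 groups did not overlap, but the difference of 0.29 ± 0.12 (SE, adjusted p = 0.132) did not pass. USP35, which has been placed on mitochondria, had 6.20, 5.98 and 6.57 TPM in control and 7.46, 9.38 and 8.37 TPM with MLN4924 (log2 fold change 0.37 ± 0.10 SE, adjusted p = 0.0332), and did not pass with the 6 libraries alone (adjusted p = 0.0664, limma) or without any 1 of 5 libraries (adjusted p of 0.0515 to 0.133). USP2 (ENSG00000036672, GRCh38 chr11:119355215-119381711), a circadian and cyclin D1 deubiquitinase, fell from 6.58, 6.70 and 7.54 TPM to 4.94, 4.15 and 4.05 TPM (log2 fold change -0.56 ± 0.10 SE, adjusted p = 0.00373). Its antisense neighbour USP2-AS1 covers 25.2% of its exonic bases and had 5.96, 3.19 and 1.84 TPM in control and 3.37, 4.03 and 3.23 TPM with MLN4924, groups that overlapped. USP27X had 2.33, 2.75 and 3.47 TPM with MLN4924 and 1.83, 1.69 and 2.02 TPM in control and did not pass (adjusted p = 0.0584, limma).

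**Figure D3:**
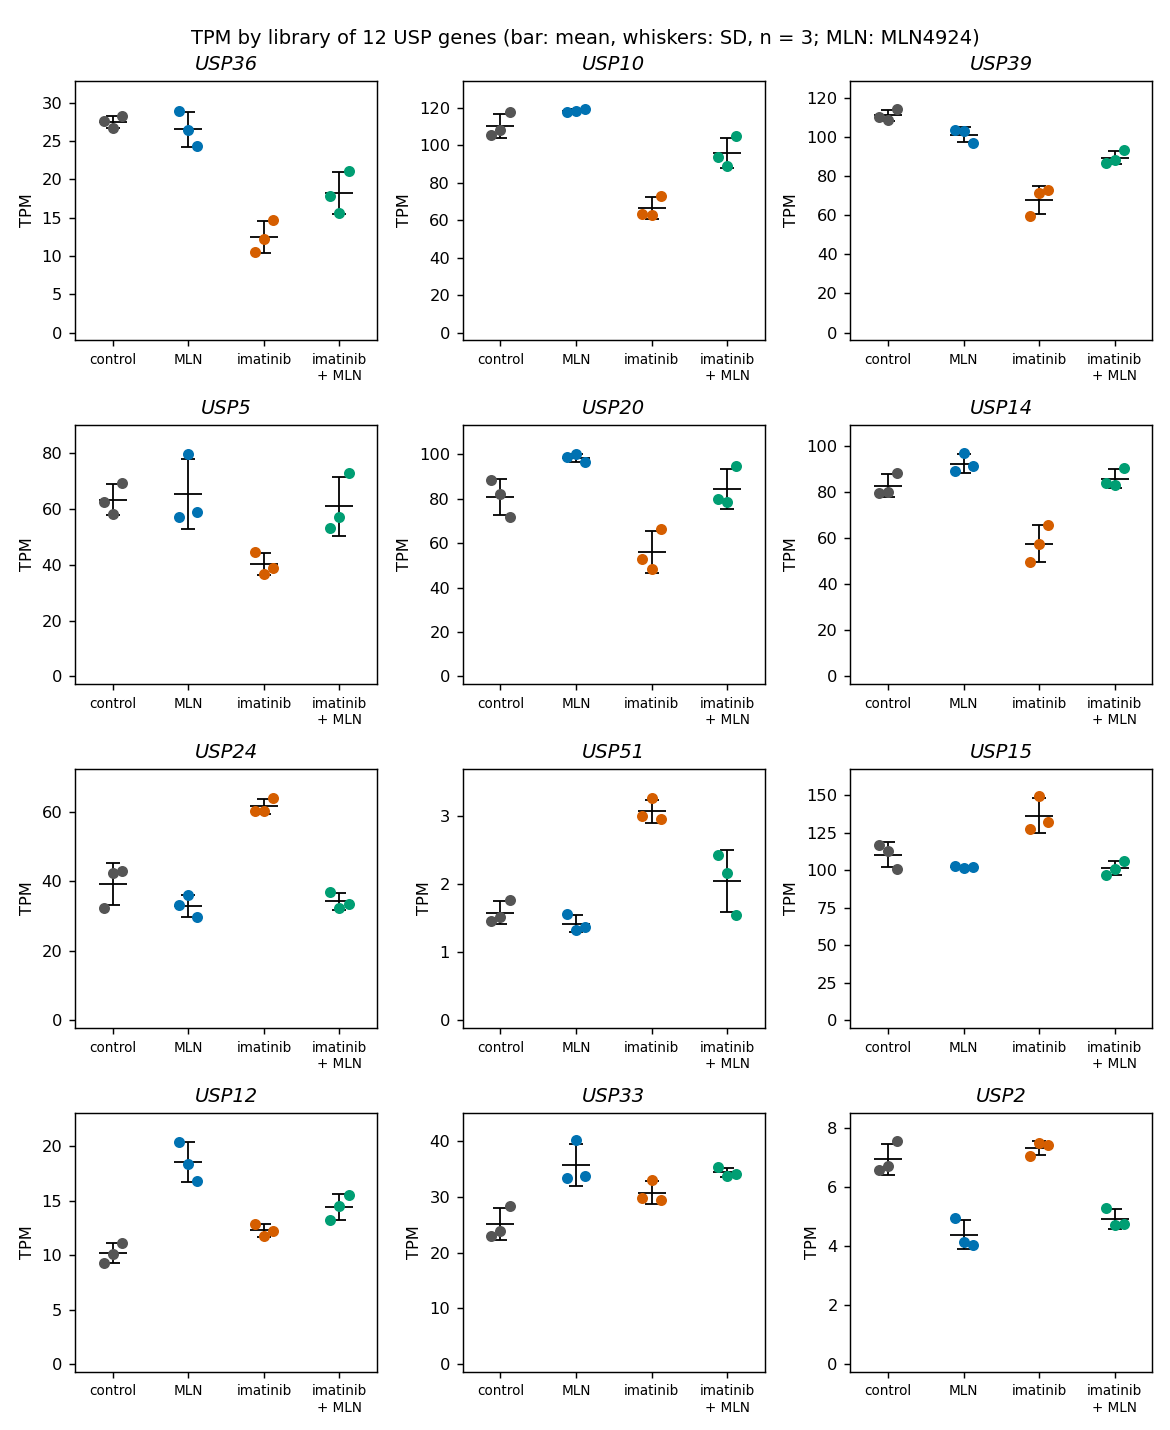
TPM in each library (points) of 12 USP genes in the 4 groups, with the group mean (bar) and SD (whiskers, n = 3). The 3 imatinib points lie below the other groups for USP36, USP10, USP39, USP5, USP20 and USP14 and above them for USP24, USP51 and USP15, and the MLN4924 points lie highest for USP12.

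Imatinib with MLN4924 against imatinib alone asks what the neddylation inhibitor changed in cells that had imatinib. Of the 46 USP genes 21 passed the threshold, and of these USP41 met the filter only through the libraries with both drugs. USP41, USP20, USP5, USP14, USP10, USP36, USP54, USP16, USP39, USP42, USP7 and USP35 were higher with both drugs, 12 genes where 22.6% of all genes tested were higher. USP24, USP49, USP2, USP9X, USP51, USP15, USP32, USP45 and USP18 were lower, 9 genes where 20.5% of all genes tested were lower. This comparison shares its imatinib libraries with the comparison above, so values that are high or low in those libraries enter both with opposite signs. The median log2 fold change of the USP genes was 0.10, against 0.0035 over all genes tested. Without imatinib replicate 2, the lower USP genes numbered 5, against 2272 of 15144 genes tested.

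With both drugs, USP20, USP5 and USP14 overlapped with control. USP20 had 79.9, 78.5 and 94.7 TPM (log2 fold change 0.59 ± 0.12 SE, adjusted p = 0.00217), USP5 53.04, 57.1 and 73.01 TPM (log2 fold change 0.58 ± 0.14 SE, adjusted p = 0.00747) and USP14 84.1, 82.96 and 90.6 TPM (log2 fold change 0.57 ± 0.09 SE, adjusted p = 0.000678). All 9 values were above every imatinib value of the same gene, and the differences from control were 0.06 (-0.20 to 0.32), -0.06 (-0.38 to 0.26) and 0.05 (-0.15 to 0.26). USP10, USP36 and USP39 were between imatinib and control. USP10 had 93.6, 89.1 and 105 TPM (log2 fold change 0.52 ± 0.08 SE against imatinib, adjusted p = 0.000428), USP36 17.8, 15.7 and 21.1 TPM (log2 fold change 0.51 ± 0.13 SE, adjusted p = 0.00747) and USP39 86.8, 87.9 and 93.3 TPM (log2 fold change 0.40 ± 0.08 SE, adjusted p = 0.00167). USP7 had 48.9, 47.6 and 57.5 TPM (log2 fold change 0.35 ± 0.10 SE, adjusted p = 0.013).

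Of the genes that were lower with both drugs than with imatinib, USP24 had the largest difference, with 37.04, 32.2 and 33.6 TPM against 60.3, 60.3 and 64.1 TPM (log2 fold change -0.83 ± 0.11 SE, adjusted p = 0.000207). With MLN4924 alone it had 33.2, 36.1 and 29.7 TPM, and all 3 libraries with both drugs overlapped with that group or with control. USP9X had 16.1, 14.7 and 16.04 TPM (log2 fold change -0.44 ± 0.10 SE, adjusted p = 0.0052) and USP15 96.8, 101 and 106 TPM (log2 fold change -0.42 ± 0.07 SE, adjusted p = 0.00108), both below every imatinib library. USP2, which imatinib alone left at 7.06, 7.49 and 7.43 TPM, had 5.30, 4.70 and 4.74 TPM with both drugs (log2 fold change -0.49 ± 0.10 SE, adjusted p = 0.00255), close to its level with MLN4924 alone. USP51 had 2.43, 2.16 and 1.54 TPM (log2 fold change -0.43 ± 0.14 SE, adjusted p = 0.0291) and did not pass with the 6 libraries alone (adjusted p = 0.0719) or without 3 single libraries (adjusted p of 0.0698 to 0.108, limma).

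USP49, which takes ubiquitin off histone H2B, had 2.58, 1.41 and 1.77 TPM with both drugs and 2.53, 3.74 and 3.12 TPM with imatinib, groups that overlapped (log2 fold change -0.51 ± 0.18 SE, adjusted p = 0.0366). It did not pass with the 6 libraries alone (adjusted p = 0.0862) or without 4 single libraries (0.0695 to 0.14, limma). On the same strand a readthrough gene covers 50% of the exonic bases of USP49. It had 4.64, 4.58 and 5.17 TPM in control, 9.65, 8.84 and 7.57 TPM with imatinib and 5.38, 6.82 and 6.14 TPM with both drugs, so the values of USP49 are uncertain. USP54, a large member of the family, had 5.99, 6.83 and 6.75 TPM with imatinib and 11.3, 8.11 and 8.21 TPM with both drugs (log2 fold change 0.43 ± 0.13 SE, adjusted p = 0.0179). The antisense gene PPP3CB-AS1 covers 22.7% of its exonic bases and had 2.89, 5.61 and 3.92 TPM and 1.17, 1.95 and 1.55 TPM, so part of the reads cannot be told apart.

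USP18 removes the ubiquitin-like protein ISG15, and USP41 is a near-copy of it that GENCODE annotates as a transcribed pseudogene. USP41 was listed at 0 in the control and imatinib libraries and in MLN4924 replicates 1 and 3, and at 15.2 TPM in MLN4924 replicate 2. With both drugs it was listed at 7.76, 11.96 and 15.4 TPM. It met the filter only through the libraries with both drugs, so its calls as higher in that group are not evidence of a change. No fold is given because the imatinib and control libraries are at 0, which can stand for a failed estimate. USP18 was measured in every library, at 7.89, 8.51 and 7.78 TPM in control, 7.30, 6.54 and 4.95 TPM with MLN4924, 9.81, 8.98 and 10.5 TPM with imatinib and 8.32, 6.97 and 7.20 TPM with both drugs, lower than with imatinib (log2 fold change -0.34 ± 0.13 SE, adjusted p = 0.046). Of the 50-base windows of USP41, 54.9% also occur in USP18 (11.6% of those of USP18), and a lncRNA on the same strand covers 73.2% of the exonic bases of USP41. Reads of these genes may be split, and both are uncertain.

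**Figure D4:**
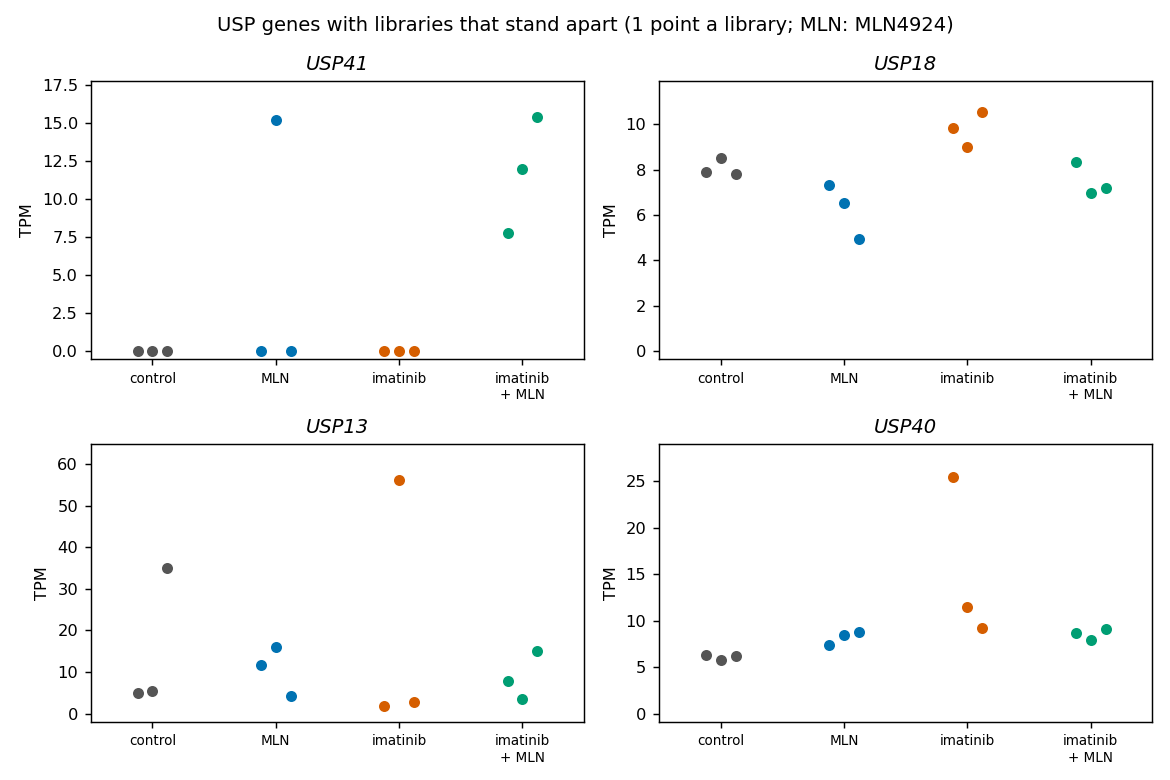
TPM in each library (points) of USP41, USP18, USP13 and USP40 in the 4 groups. USP41 is at 0 except in 1 MLN4924 library and the 3 libraries with both drugs, USP13 has 1 high library in control (34.9) and 1 with imatinib (56.2), and USP40 has 1 high imatinib library (25.4).

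Imatinib was also added on top of MLN4924. Of the 46 USP genes, USP36, USP7, USP12 and USP10 were lower with both drugs than with MLN4924 alone, 4 genes where 8.48% of all genes tested were lower. USP36 had 28.9, 26.4 and 24.3 TPM with MLN4924 and 17.8, 15.7 and 21.1 TPM with both drugs (log2 fold change -0.53 ± 0.13 SE, adjusted p = 0.0192), and USP7 66.7, 67.1 and 64.8 TPM and 48.9, 47.6 and 57.5 TPM (log2 fold change -0.36 ± 0.10 SE, adjusted p = 0.0287). USP12 had 20.4, 18.4 and 16.8 TPM and 13.2, 14.5 and 15.5 TPM (log2 fold change -0.34 ± 0.10 SE, adjusted p = 0.0383), and USP10 118, 118 and 119 TPM and 93.6, 89.1 and 105 TPM (log2 fold change -0.31 ± 0.08 SE, adjusted p = 0.0246). The calls of these 4 genes were close to the threshold. Without MLN4924 replicate 1 or 2, or without replicate 1 or 2 of both drugs, 0 of the 4 passed. No USP gene passed as higher by limma, where 7.73% of all genes tested did and 4 USP genes had an unadjusted p under 0.05.

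The effect of imatinib without and with MLN4924 rests on separate libraries and can be set side by side. Of the 12 genes that fell with imatinib, 12 had a negative log2 difference in the presence of MLN4924 and 3 passed (USP36, USP7 and USP10), with medians of -0.52 and -0.18. Of the 10 genes that rose, 6 had a positive difference in the presence of MLN4924 and 0 passed, with medians of 0.37 and 0.06. Over all genes tested, 88.9% of those that fell and 87.4% of those that rose kept their sign. Their medians were -0.61 and -0.23 for the falls and 0.71 and 0.26 for the rises. Of all genes tested, 1125 of the 4260 falls and 984 of the 4073 rises kept their sign and passed in the presence of MLN4924. All 22 USP differences were smaller in the presence of MLN4924, as were 4052 of the 4260 falls and 3885 of the 4073 rises over all genes. Genes picked by the threshold in 1 comparison tend to show smaller values in another, so the sizes are a description.

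**Figure D5:**
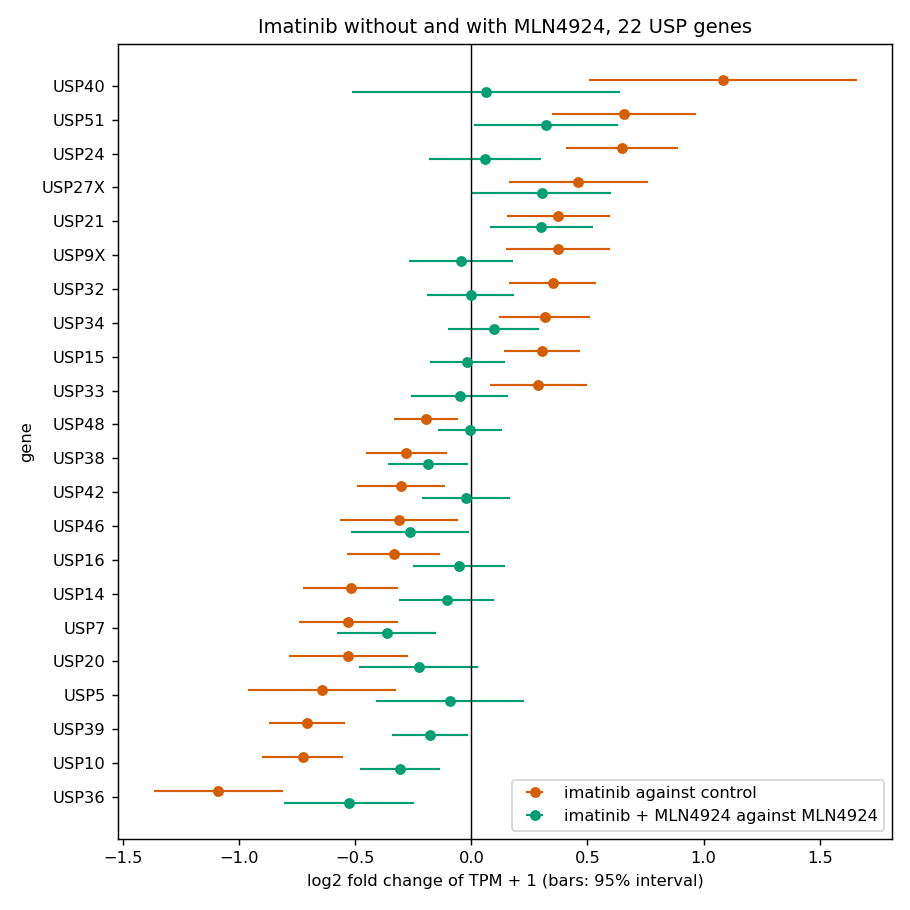
Log2 fold change of TPM + 1 (x axis, points) with its 95% interval (bars) for imatinib against control and for imatinib + MLN4924 against MLN4924, in the 22 USP genes that passed in the first. The 12 genes that fell have negative points in both, and 4 of the 10 that rose (USP9X, USP32, USP15 and USP33) have points at or below 0 in the second.

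The interaction tests whether the effect of imatinib differed between cells with and without MLN4924. USP39 and USP10 had a positive interaction, 2 genes where 9.06% of all genes tested were positive, and USP24 and USP12 a negative one, 2 genes where 7.35% of all genes tested were negative. For USP39 the log2 fold change of imatinib was -0.71 without and -0.18 with MLN4924, and the interaction was 0.53 ± 0.11 (SE, adjusted p = 0.011). For USP10 the values were -0.73 and -0.31, with an interaction of 0.42 ± 0.11 (SE, adjusted p = 0.0283). For USP24 they were 0.65 and 0.06, with an interaction of -0.59 ± 0.16 (SE, adjusted p = 0.0277). For USP12 they were 0.25 and -0.34, with an interaction of -0.59 ± 0.14 (SE, adjusted p = 0.0193). Its mean was lowest in control and highest with MLN4924 alone. USP36, with the largest fall, had an interaction of 0.56 ± 0.18 (SE, adjusted p = 0.053), which did not pass.

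The number of these calls depended on imatinib replicate 3. In that library USP36, USP10, USP39, USP20, USP14, USP7 and USP16 were at the highest of their 3 imatinib values. Without that library 15.6% of all genes tested were positive and 10% negative, and 7 USP genes were positive (USP36, USP39, USP14, USP10, USP20, USP16 and USP1) and 6 negative (USP40, USP12, USP24, USP9X, USP32 and USP15). USP39 passed in all of the settings tried, and USP12 in all but 1, without imatinib replicate 1 (adjusted p = 0.0521, limma).

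Against control, 7 of the 46 USP genes passed with both drugs, and of these USP41 met the filter only through the libraries with both drugs. USP41, USP27X, USP12 and USP33 were higher, 4 genes where 12.2% of all genes tested were higher, and USP36, USP2 and USP39 were lower, 3 genes where 13.9% of all genes tested were lower. The lower USP genes numbered 5 without control replicate 1 or without replicate 3 of both drugs, against 1649 of 15377 and 2351 of 15371 genes tested. USP27X had 3.95, 3.44 and 3.77 TPM with both drugs and 1.83, 1.69 and 2.02 TPM in control, with a mean of 201% of that in control (log2 fold change 0.73 ± 0.14 SE, adjusted p = 0.00293). USP12 had 13.2, 14.5 and 15.5 TPM (log2 fold change 0.46 ± 0.10 SE, adjusted p = 0.00577) and USP33 35.4, 33.7 and 34.2 TPM (log2 fold change 0.44 ± 0.10 SE, adjusted p = 0.00606), both above every control library. USP36 stayed below control (log2 fold change -0.58 ± 0.13 SE, adjusted p = 0.00675), as did USP39 (log2 fold change -0.31 ± 0.08 SE, adjusted p = 0.0113) and USP2 (log2 fold change -0.42 ± 0.10 SE, adjusted p = 0.0101).

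Other members passed in no comparison. USP22 lay between 58.7 and 71.7 TPM over the 12 libraries, and its log2 differences from control were -0.08 (-0.24 to 0.09) with MLN4924, 0.01 (-0.15 to 0.17) with imatinib and -0.05 (-0.22 to 0.11) with both. USP47, an enzyme of base excision repair, lay between 28.6 and 35.5 TPM. On the opposite strand DKK3 covers 41.4% of the exonic bases of USP47, so part of the reads cannot be told apart. USP30, which opposes mitophagy at the outer mitochondrial membrane, had 5.997 ± 0.75 TPM in control and 7.31 ± 1.497 TPM with imatinib (SD, n = 3) and did not pass in any comparison, with a log2 difference of 0.24 (-0.14 to 0.62) under imatinib.

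The partners and the pathway around the USP genes were counted from lists. Of 8 cofactors of USP enzymes, 1 rose and 2 fell with imatinib, where 26.3% of all genes tested rose and 27.5% fell, and 3 were higher and 0 lower with both drugs than with imatinib (PSMD2, G3BP1 and ENY2), where 22.6% of all genes tested were higher and 20.5% lower. PSMD2, the proteasome subunit on which USP14 docks, went from 276.8 ± 10.6 TPM in control to 169.7 ± 6.79 TPM with imatinib (SD, n = 3), a log2 fold change of -0.70 ± 0.07 (SE, adjusted p = 1.22e-05), and was at 287.6 ± 25.7 TPM with both drugs. G3BP1, the partner of USP10, went from 216.1 ± 14.0 TPM to 145.6 ± 30.6 TPM (-0.58 ± 0.13 SE, adjusted p = 0.00233). WDR48, the UAF1 subunit of USP1, USP12 and USP46, rose from 27.5 ± 2.67 TPM to 36.9 ± 0.90 TPM (0.42 ± 0.08 SE, adjusted p = 0.00154). ATXN7L3, ENY2, WDR20, ATXN7 and GMPS did not pass with imatinib against control.

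A further list held deubiquitinases of other classes together with 4 genes of another kind: CYLD, which is of the USP class, PAN2, a subunit of a deadenylase, USPL1, a SUMO protease, and SENP8, a NEDD8 protease. Of its 33 tested genes, 9 rose and 9 fell with imatinib, near the 26.3% and 27.5% of all genes tested. With MLN4924 alone 1 rose (YOD1) and 0 fell, where 7.36% and 7.11% of all genes tested did, and 8 were higher and 5 lower with both drugs than with imatinib, where 22.6% and 20.5% of all genes tested were. PSMD14, the proteasome's own deubiquitinase, fell with imatinib from 233.1 ± 12.6 TPM to 130.6 ± 22.5 TPM (-0.84 ± 0.11 SE, adjusted p = 8.81e-05), and CYLD, which acts on NF-kB signalling, rose from 3.48 ± 0.31 TPM to 6.21 ± 0.39 TPM (0.69 ± 0.11 SE, adjusted p = 0.000252). Of 9 genes of ubiquitin, ubiquitin-like proteins and their activation, 6 fell and 0 rose with imatinib, where 27.5% of all genes tested fell and 26.3% rose, with UBB, NEDD8, UBA1 and UBA6 among the falls, and NEDD8 and UBB were higher with both drugs than with imatinib. ISG15 was lower with MLN4924 than in control (-0.50 ± 0.13 SE, adjusted p = 0.0264).

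The USP genes that fell with imatinib had a median control level of 56.3 TPM, those that rose 26.2 TPM and those that did not pass 9.13 TPM. Over all genes tested the corresponding medians were 34.5, 6.60 and 6.74 TPM. Levels were thus higher among the falls than among the rises both in the USP genes and in the table as a whole.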

How the data were processed

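The authors trimmed reads with fastp 0.20.1, aligned them to hg38 with HISAT2 2.1.0, and used StringTie 2.0 for assembly and quantification. The deposited values are the authors' TPM per gene. The submitters' processing notes also name featureCounts, but the table holds no counts, so depth is unknown and a value of 0 can be a failed estimate. Names and positions came from the table and from GENCODE release 44 (GRCh38), in which all 51 USP genes matched. The 691 assembled loci without an Ensembl identifier were left out.

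Genes that reached 1 TPM in 3 or more libraries entered the test, made with limma 3.58.1 (R 4.3.3, eBayes with trend) on log2(TPM + 1), with 1 coefficient for each of the 4 groups over all 12 libraries and Benjamini-Hochberg adjustment over all genes tested at a threshold of 0.05. A fold change on this scale understates changes of low genes. Genes named with full statistics were the 5 largest rises and falls past the threshold in each comparison, the 3 of each sign in the interaction, the 5 most abundant in control and representatives of each role. Other genes are named where counts were small or a value needed a limit. The members and lists were chosen with earlier results of these data known. The fit was tested on simulated data. Alternatives were pseudocounts of 0.1 and 5, no filter, a filter of 5 TPM, median-of-ratios scaling, no trend, a block for the replicate number, a fit of only the groups compared, and each library left out. Tables were handled with Python 3.11.15 and pandas 2.3.3. Some genes of the marker and pathway lists are counted but not reported here by name.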

Additional observations from a re-analysis of the deposited data

Results flagged for a closer look

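In 4 USP genes the effect of imatinib differed between cells without and with MLN4924 by a test of the difference itself (limma, adjusted over all genes tested). Positive interactions made up 4.35% of the USP genes and 9.06% of all genes tested, and negative ones 4.35% and 7.35%. The interaction was -0.59 on the log2 scale for USP24 and -0.59 for USP12, and 0.42 for USP10 and 0.53 for USP39. No explanation of these differences was tested. USP24 did not pass without a filter or when any 1 of 6 libraries was left out, and USP10 did not pass without a filter or when any 1 of 8 libraries was left out. USP12 did not pass without imatinib replicate 1 (adjusted p = 0.0521).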

How the results depend on the processing

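Of 47 results for named USP genes, 0 changed sign under an alternative while passing in the main fit or in that alternative. Sign changes of results that passed in neither were not counted. Under at least 1 alternative, 10 lost their call and 1 gained it (USP1 with imatinib, -0.21, without imatinib replicate 3). With a filter of 5 TPM, 1 USP gene was higher with both drugs than with MLN4924, as were 1130 of 11118 genes tested. With no filter, 5 USP genes were lower with both drugs than with imatinib (3215 of all 32062 genes tested) and 2 lower than with MLN4924 (745). The interaction then had 1 positive and 1 negative USP gene, against 668 and 730 over all genes. With only the groups compared, 5 USP genes were lower with both drugs than with imatinib, as were 2816 of 15478 genes tested. The interaction had 4 positive USP genes with the filter of 5 TPM and 4 with median-of-ratios scaling, against 1539 of 11118 and 1673 of 15478 genes tested. That scaling gave 5 USP genes lower with both drugs than in control, and 2265 of all genes tested. The cause of these shifts was not tested beyond the number of genes or libraries in each fit. The labels do not say whether the replicate numbers pair the libraries. Same-numbered libraries correlated at -0.06 to 0.19 in their deviations from the group means, over 0.1 in 1 of 18 pairs. That pair was replicate 3 of imatinib and of both drugs. Libraries with different numbers correlated at -0.12 to 0.07. With the replicate number as a block, 5 USP genes were lower with both drugs than in control and 13 lower with imatinib than in control. Over all 15478 genes tested these counts were 2161 and 4237.

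Leaving out each library in turn gave 9 to 11 higher and 9 to 14 lower genes for imatinib against control, 2 to 4 and 1 to 2 for MLN4924 against control, and 10 to 13 and 5 to 9 for both drugs against imatinib. The ranges were 0 to 2 and 0 to 4 against MLN4924, 4 to 5 and 3 to 5 against control, and 1 to 7 positive and 1 to 6 negative for the interaction. Over all genes tested, imatinib against control gave 3292 to 4084 higher and 3619 to 4392 lower. MLN4924 against control gave 660 to 1331 and 681 to 1337, and both drugs against imatinib 2569 to 3872 and 2272 to 3174. Against MLN4924 the ranges were 541 to 1382 and 468 to 1889, and against control 1317 to 2070 and 1399 to 2534. The interaction gave 571 to 2360 positive and 446 to 1518 negative. Summed USP TPM ranged from 1300 to 1354 in control, 1346 to 1396 with MLN4924, 1203 to 1251 with imatinib and 1264 to 1324 with both drugs. Rescaled to the total of TPM outside the mitochondrial chromosome it was 1537, 1585, 1482 and 1532.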
